A study of Mus musculus with 16 samples.

Results

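The transcripts described here belong to 36 named genes of red cell formation, chosen by name in 6 roles: transcription factors, receptors, surface antigens, the membrane skeleton with the anion exchanger, heme synthesis with its mitochondrial carriers, and terminal erythroid genes. Of the 36 genes, 34 were matched among 36829 listed features, 33 by the same symbol and Epb42 by its older symbol Epb4.2. Ank1 and Ahsp were not analysed here. All 34 matched genes passed a filter of a mean of at least 0.5 RPKM (reads scaled to gene length and library size), as did 16973 features in all.

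The samples were cortical bone of the femur from 11-week-old female C57Bl/6J mice, 1 library per mouse. The 8 Control mice bore weight normally and the 8 HLU mice had their hindlimbs unloaded for 7 days by suspension at the tail. In both groups the ends of the bone were cut off and the marrow was flushed out before total RNA was made from the shaft, so the samples can hold marrow cells that stayed in the bone. Whole reads recovered from the RPKM values gave library sizes of 7067512 to 21363584 reads, with Control 2 (7067512) and HLU 5 (7838277) the smallest.

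Red cells are made in the marrow from progenitors that depend on erythropoietin, which acts through the receptor Epor. GATA1, together with TAL1, KLF1 and the cofactor encoded by Zfpm1, turns on the genes for heme enzymes, globins and proteins of the red cell membrane, and the maturing cell then loses its nucleus. The marrow lies beside the inner surface of cortical bone, and erythroid precursors are not cells of the bone matrix itself. Several of the genes are shared with other cells: Gata1, Tal1, Nfe2, Gfi1b and Zfpm1 also act in megakaryocytes, Tfrc is used by dividing cells in general, and Car2 acidifies the resorption pit of osteoclasts.

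Erythroid transcripts were abundant in the flushed bone. The mean level over 16 mice ran from 2.75 RPKM for Zfpm1 to 824 RPKM for Car2, with a median of 34.5 RPKM over the 34 genes against 4.37 RPKM over all features tested, and 32 of the 34 genes lay above that overall median. Together the 34 genes took 0.444% to 1.64% of the summed RPKM of a mouse. The read count behind a value ranged from 13 reads, for Icam4, to 44306 reads, for Slc4a1. Leading genes of the lineage were present in every mouse: in the mouse with the lowest value the erythroid heme enzyme Alas2 was at 164 RPKM, the anion exchanger Slc4a1 at 116 RPKM and the nuclear protein Hemgn at 69.6 RPKM.

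All 34 erythroid genes had a lower mean in HLU than in Control mice, and no gene passed a test adjusted over all features. The log2 differences ran from -0.73 for Tal1 to -0.16 for Car1, with a median of -0.52, a ratio of HLU to Control of 0.695 on the scale of log2(RPKM + 0.1). Over all features the median was -0.10, and 67.9% of features (11523 of 16973) were lower in HLU. At an unadjusted p under 0.05 with at least 1.2-fold, 10 of the 34 genes were lower in HLU (29.4%), against 4.76% of all features (808 of 16973), and 0 of the 34 were higher, against 1.11% (188 of 16973). The 10 genes were Tal1, Uros, Cpox, Slc25a37, Car2, Klf1, Rhd, Rhag, Kel and Hemgn. At an adjusted p under 0.1 limma called 0 of the 34 genes and 0% of all features, with 1049 features at an unadjusted p under 0.05, and the lowest adjusted p of an erythroid gene was 0.744. limma voom on the recovered reads also called 0 features at the adjusted threshold, and at the unadjusted rule it called 599 features lower, 10 of the 34 genes among them, and 266 higher.

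In whole tissue, fewer erythroid cells and less erythroid RNA per cell cannot be told apart. How many features counted as lower depended on the values used: of the features called at the unadjusted rule 18.9% were higher on RPKM, 30.8% with voom, 49.1% after median-of-ratios rescaling, 53.9% after an adjustment for GC content of 15459 features and 55.8% after quantile normalization. Quantile normalization moved the median of all features from -0.10 to 0.00. The median of the 34 genes was then -0.40, and -0.43 after median-of-ratios rescaling, with 7 genes called lower in either case, against 2.14% of features after quantile normalization and 2.33% after median-of-ratios rescaling. The 34 genes were lower under every scaling. The count of 10 also moved with single mice: it was 3 without Control 6, HLU 1 or HLU 7, 4 without Control 7 or HLU 4, 6 without Control 8, HLU 5 or HLU 6, 16 without Control 4, 17 without HLU 8, 18 without HLU 3 and 19 without HLU 2, while the share of all features called lower moved between 2.77% (without HLU 7) and 8.16% (without HLU 2). The count was 5 without both small libraries, Control 2 and HLU 5, against 5.08% of features. Groups that did not overlap were found for 0 of the 34 genes, against 0.0295% of all features (5 of 16973).

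**Figure D1:**
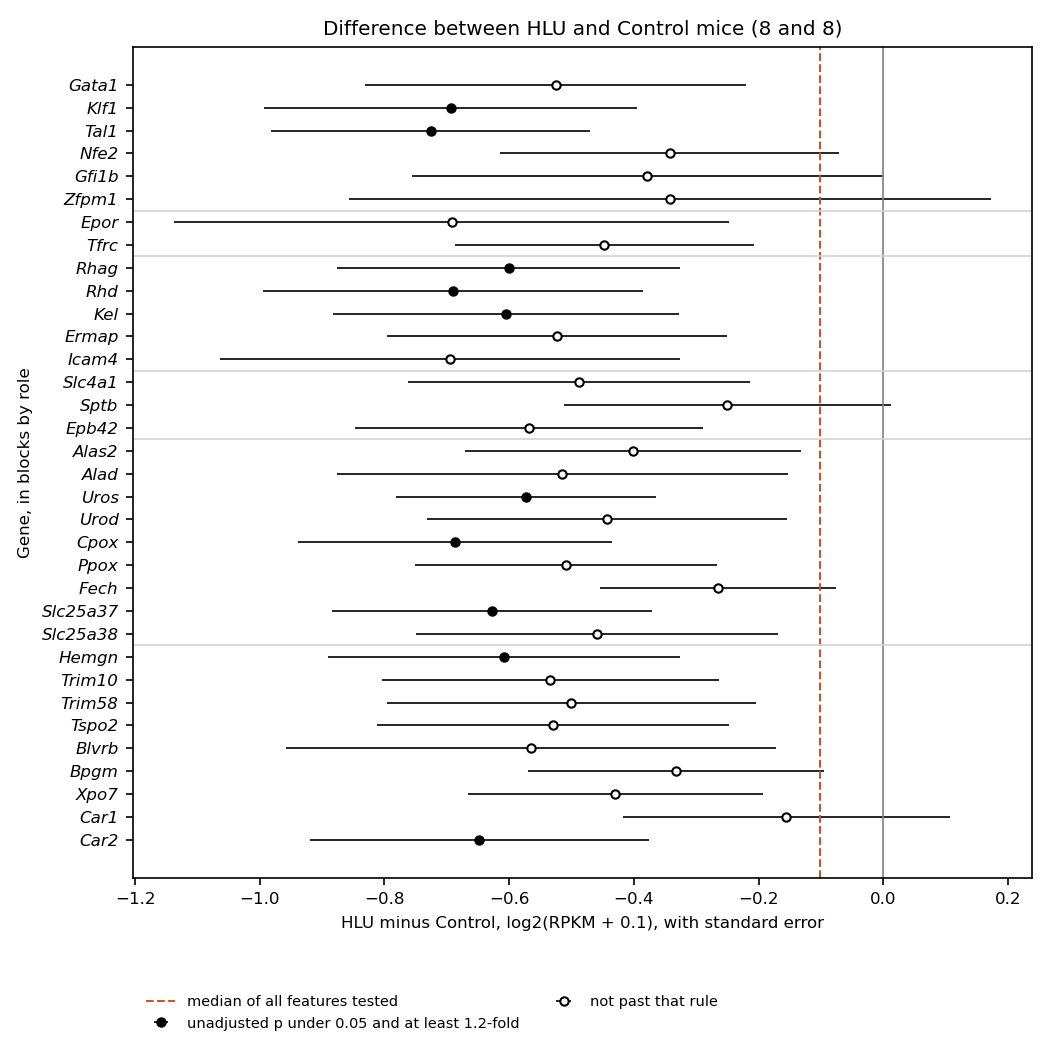
Mean difference between 8 HLU and 8 Control mice for each of the 34 genes, in blocks by role, on the scale of log2(RPKM + 0.1), with bars of 1 standard error; filled points passed an unadjusted p under 0.05 with at least 1.2-fold. All points lie below 0 and below the dashed median of all features at -0.10, from -0.73 for Tal1 to -0.16 for Car1.

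The transcription factors were led by Tal1, a helix-loop-helix partner of GATA1. Tal1 was between 19.1 and 47.7 RPKM in Control mice (median 26.4) and between 8.63 and 30.7 RPKM in HLU mice (median 16.1). HLU 7 was the lowest mouse and 4 HLU mice lay below every Control mouse, but HLU 3 lay among the upper Control mice, so the groups overlapped. The resulting log2 difference was -0.73 ± 0.26 (SE), with an exact permutation p of 0.0208 over the 12870 ways to assign 16 mice to 8 and 8, and a limma adjusted p of 0.744.

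Klf1, which activates adult beta-globin and many red cell membrane genes, was between 23.6 and 64.4 RPKM in Control mice (median 38.5) and between 13.7 and 55.5 RPKM in HLU mice (median 21.2). In Klf1 5 HLU mice lay below the lowest Control mouse, while HLU 3 and HLU 2 were as high as the higher Control mice. Klf1 thus had a log2 difference of -0.69 ± 0.30 (SE, exact permutation p = 0.0511). Gata1, the master factor of the lineage, was between 17.3 and 61.0 RPKM in Control mice (median 33.4) and between 11.0 and 44.5 RPKM in HLU mice (median 22.3). The highest Control mouse was Control 7, the lowest HLU mice were HLU 4 and HLU 7, and only HLU 2 and HLU 3 exceeded the median of the Control mice. The log2 difference of Gata1 was -0.53 ± 0.31 (SE, exact permutation p = 0.134). For Nfe2, Gfi1b and Zfpm1 the log2 differences were -0.34, -0.38 and -0.34, and none passed the unadjusted rule.

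Promoters are shown for 6 genes picked as examples, 2 transcription factors, both receptors, the first heme enzyme and Hemgn, so that the letters at their start sites can be read side by side. RefSeq promoters of GRCm38.p6, from 250 bases before to 50 bases after the start site, were matched by symbol for 27 of the 34 genes. The GATA word was searched as WGATAR (W for A or T, R for A or G) and the CACC-type word bound by KLF proteins as CCNCNCCC, both on either strand, and capitals mark every match, with overlapping matches run together. The promoters lie at chr8:84901732-84902031 (Klf1, plus strand), chrX:7967861-7968160 (Gata1, minus strand), chr9:21963527-21963826 (Epor, minus strand), chr16:32608646-32608945 (Tfrc, plus strand), chrX:150547167-150547466 (Alas2, plus strand) and chr4:46404134-46404433 (Hemgn, minus strand), each 5′ to 3′ on the strand of its gene.
Klf1: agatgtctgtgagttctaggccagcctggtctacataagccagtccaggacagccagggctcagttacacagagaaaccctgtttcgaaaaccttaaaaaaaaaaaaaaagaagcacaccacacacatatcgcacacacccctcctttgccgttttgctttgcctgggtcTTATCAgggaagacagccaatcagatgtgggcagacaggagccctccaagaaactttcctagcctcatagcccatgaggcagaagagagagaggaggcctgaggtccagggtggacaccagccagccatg
Gata1: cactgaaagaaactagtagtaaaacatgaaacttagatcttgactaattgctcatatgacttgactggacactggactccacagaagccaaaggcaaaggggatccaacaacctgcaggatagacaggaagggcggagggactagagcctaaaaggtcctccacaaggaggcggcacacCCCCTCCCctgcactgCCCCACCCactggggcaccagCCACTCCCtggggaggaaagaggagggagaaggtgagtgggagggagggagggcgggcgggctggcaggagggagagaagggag
Epor: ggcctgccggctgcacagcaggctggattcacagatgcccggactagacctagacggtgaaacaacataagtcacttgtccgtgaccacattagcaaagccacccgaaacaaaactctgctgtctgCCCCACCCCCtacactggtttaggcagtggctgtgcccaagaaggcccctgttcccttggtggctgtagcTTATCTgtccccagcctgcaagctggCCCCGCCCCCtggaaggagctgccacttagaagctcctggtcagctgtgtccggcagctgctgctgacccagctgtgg
Tfrc: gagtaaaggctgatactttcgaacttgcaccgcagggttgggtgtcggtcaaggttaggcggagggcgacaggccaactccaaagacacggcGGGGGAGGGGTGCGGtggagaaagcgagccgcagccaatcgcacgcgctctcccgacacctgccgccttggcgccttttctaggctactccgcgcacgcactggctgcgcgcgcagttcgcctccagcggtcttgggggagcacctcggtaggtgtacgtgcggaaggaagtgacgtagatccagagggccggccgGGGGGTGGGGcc
Alas2: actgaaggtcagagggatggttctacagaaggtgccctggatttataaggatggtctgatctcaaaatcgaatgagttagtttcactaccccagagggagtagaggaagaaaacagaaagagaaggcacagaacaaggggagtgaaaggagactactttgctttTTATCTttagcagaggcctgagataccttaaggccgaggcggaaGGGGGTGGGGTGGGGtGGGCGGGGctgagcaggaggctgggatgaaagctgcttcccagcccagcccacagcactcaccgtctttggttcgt
Hemgn: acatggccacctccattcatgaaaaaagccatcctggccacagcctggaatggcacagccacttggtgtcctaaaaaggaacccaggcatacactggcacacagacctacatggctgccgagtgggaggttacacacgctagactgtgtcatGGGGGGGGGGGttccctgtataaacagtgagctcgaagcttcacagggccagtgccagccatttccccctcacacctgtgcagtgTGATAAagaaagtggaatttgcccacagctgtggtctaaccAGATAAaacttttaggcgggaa
A GATA word was present in 16 of the 27 promoters (59.3%), against 30.2% of all 27025 promoters of the same length, and a CACC-type word in 19 (70.4%), against 49.1%. Both words were present in 8 of the 27 (29.6%), against 10.3% of all. Klf1 held 1 GATA word at position -80 and no CACC-type word, and Gata1 held 3 CACC-type words, at -71, -55 and -34, and no GATA word in this window. Alas2 and Epor held 1 GATA word each, at -86 and -54, and 4 CACC-type words each, some of them overlapping. Hemgn held 2 GATA words, at -13 and 29, and 4 overlapping CACC-type words from -98 to -95, all within a single run of G. Tfrc held 5 CACC-type words, some of them overlapping, and no GATA word. These are matches of letters only, and a match to CCNCNCCC need not hold the letters CACC.

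Among the receptors, Epor binds erythropoietin and Tfrc takes up iron-loaded transferrin. Epor was between 3.92 and 35.4 RPKM in Control mice (median 14.0) and between 1.74 and 12.9 RPKM in HLU mice (median 8.47). All 8 HLU mice were under the median of the Control mice, and 4 Control mice lay above every HLU mouse, but Control 4 and Control 1 were lower than most HLU mice. With this spread the log2 difference of -0.69 ± 0.45 (SE) had an exact permutation p of 0.178. Tfrc was between 64.8 and 167 RPKM in Control mice (median 98.2) and between 37.4 and 121 RPKM in HLU mice (median 73.1). Control 6 stood highest and HLU 1 lowest, and HLU 8 lay above all Control mice but Control 6. Tfrc had a log2 difference of -0.45 ± 0.24 (SE, exact permutation p = 0.10).

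The surface antigens had log2 differences from -0.70 for Icam4 to -0.52 for Ermap. Of these 5 genes 3 passed the unadjusted rule, Icam4 and Ermap not among them, against 4.76% of all features lower in HLU. Rhd, a protein of the Rh complex, was between 59.7 and 234 RPKM in Control mice (median 110) and between 32.2 and 107 RPKM in HLU mice (median 79.6). Every HLU mouse was under the median of the Control mice and 4 Control mice lay above all HLU mice, with Control 7 far the highest and HLU 4 the lowest. The log2 difference was -0.69 ± 0.30 (SE, exact permutation p = 0.0542). Rhag, which carries the Rh proteins to the membrane, and Kel, an endopeptidase and blood group antigen, each had log2 differences of -0.60 (exact permutation p = 0.0636 and 0.0617).

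In the membrane group, Slc4a1, the chloride-bicarbonate exchanger known as band 3, was between 224 and 535 RPKM in Control mice (median 265) and between 116 and 414 RPKM in HLU mice (median 217). In Slc4a1 5 HLU mice lay below all Control mice, HLU 1, HLU 4 and HLU 7 by the most, and HLU 3 lay above all of them but Control 7. The log2 difference was -0.49 ± 0.27 (SE, exact permutation p = 0.117). Epb42, which binds band 3 to ankyrin, was between 26.6 and 53.5 RPKM in Control mice (median 39.3) and between 12.3 and 49.3 RPKM in HLU mice (median 23.9). Here 5 HLU mice lay below the lowest Control mouse, and HLU 2, HLU 3 and HLU 8 lay within the upper Control values. Its log2 difference was -0.57 ± 0.28 (SE, exact permutation p = 0.0793). Sptb, the erythroid beta-spectrin, had a log2 difference of -0.25 ± 0.26, within its standard error of 0. None of these 3 genes passed the unadjusted rule, against 4.76% of all features lower in HLU.

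The heme synthesis genes ran from the first step, with its erythroid-specific enzyme, to the insertion of iron. Alas2, the enzyme of that first step, was between 290 and 624 RPKM in Control mice (median 416) and between 164 and 579 RPKM in HLU mice (median 291). HLU 2, HLU 3 and HLU 8 lay above every Control mouse but Control 7, while 4 HLU mice lay below all Control mice and HLU 6 below all but Control 5. For Alas2 the log2 difference was -0.40 ± 0.27 (SE, exact permutation p = 0.176). Fech, which inserts iron in the last step, was between 149 and 242 RPKM in Control mice (median 180) and between 102 and 235 RPKM in HLU mice (median 142). It varied less between mice than any other of the 34 genes, with a standard deviation of 0.39 on the log2 scale within groups, and 5 HLU mice lay below all Control mice. Its log2 difference was -0.26 ± 0.19 (SE, exact permutation p = 0.192).

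Of the enzymes between these steps, 2 passed the unadjusted rule, Uros and Cpox. Uros, which closes the tetrapyrrole ring, was between 16.1 and 29.7 RPKM in Control mice (median 21.5) and between 8.11 and 22.9 RPKM in HLU mice (median 14.8). In Uros 4 HLU mice lay below all Control mice and 4 Control mice lay above all HLU mice, with HLU 1 and HLU 7 the lowest. For Uros the log2 difference was -0.57 ± 0.21 (SE, exact permutation p = 0.0207). Cpox, the oxidase of coproporphyrinogen, had a log2 difference of -0.69 ± 0.25 (SE, exact permutation p = 0.0211), and Slc25a37, mitoferrin of the inner mitochondrial membrane, -0.63 ± 0.26 (SE, exact permutation p = 0.0336). Of the 9 genes of this group 3 passed the unadjusted rule, against 4.76% of all features lower in HLU. The other 6 had log2 differences from -0.51 to -0.26.

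Among the terminal genes, Hemgn was between 159 and 343 RPKM in Control mice (median 235) and between 69.6 and 284 RPKM in HLU mice (median 141). HLU 7 was the lowest mouse, 5 HLU mice lay below the lowest Control mouse, and HLU 2, HLU 3 and HLU 8 lay among the Control mice. The log2 difference was -0.61 ± 0.28 (SE, exact permutation p = 0.0631). Of the carbonic anhydrases, Car2 was between 726 and 1481 RPKM in Control mice (median 886) and between 295 and 1095 RPKM in HLU mice (median 564), with 5 HLU mice below all Control mice and HLU 2, HLU 3 and HLU 8 within the Control range. The log2 difference of Car2 was -0.65 ± 0.27 (SE, exact permutation p = 0.0418). Car1, the other red cell isoform, was between 105 and 307 RPKM in Control mice (median 190) and between 73.1 and 280 RPKM in HLU mice (median 161). Only HLU 7 lay below the lowest Control mouse, and the log2 difference of -0.16 ± 0.26 (SE, exact permutation p = 0.588) was the smallest of the 34 and turned to 0.01 without HLU 7. Whether Car1 and Car2 differed in their response was not tested. The other 6 terminal genes, Trim10, Trim58, Tspo2, Blvrb, Bpgm and Xpo7, had log2 differences from -0.57 to -0.33.

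Across the 34 genes the same mice were high or low. The mean of the 34 genes, on the log2 scale and relative to the mean of all 16 mice, was lowest in HLU 7 (-0.98), HLU 4 (-0.95) and HLU 1 (-0.72), and these 3 mice held the lowest value of all 16 in 33 of the 34 genes. It was highest in Control 7 (1.05) and Control 6 (0.59), which held the highest value in 31 of the 34 genes. HLU 3 (0.52), HLU 2 (0.46) and HLU 8 (0.21) lay at the level of the Control mice, and HLU 5 (-0.30) and HLU 6 (-0.27) lay just below the lowest Control mouse, Control 4 (-0.21).

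**Figure D2:**
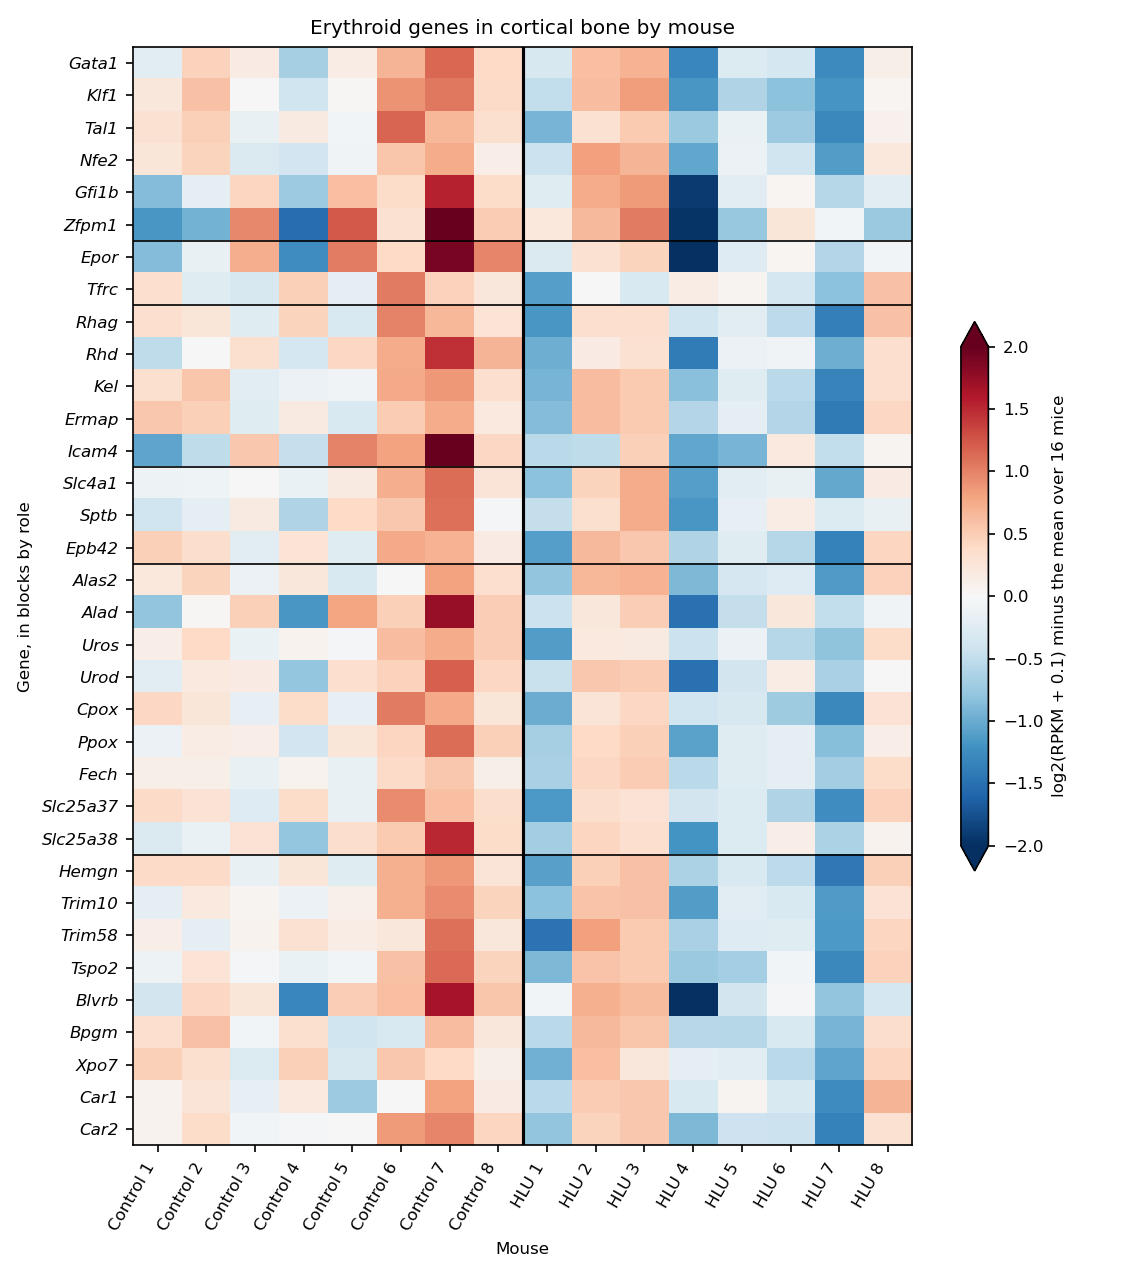
Level of each of the 34 genes (vertical, in blocks by role) in each of 16 mice (horizontal), as log2(RPKM + 0.1) minus the mean of the gene over the 16 mice, with the ends of the colour scale standing for all values beyond them. HLU 1, HLU 4 and HLU 7 are blue for nearly all genes, while Control 6, Control 7, HLU 2 and HLU 3 are mostly red.

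The 3 lowest mice also had the most mitochondrial reads. The mitochondrial share of reads on listed features was 18.7% in HLU 1, 19.1% in HLU 4 and 15.3% in HLU 7, the highest of the 16 mice, and 6.08% in Control 7, the lowest. The share of library reads that fell on listed features was lowest in HLU 7 (76.3%) and HLU 6 (79.2%). Their part in the lower erythroid values was not tested.

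Libraries also differed in how their values depended on the base composition of the genes. The slope of the log2 values on GC content, per 10 percentage points, was -0.59 in HLU 4, -0.48 in Control 4 and -0.47 in Control 1, and reached 0.39 in Control 7 and 0.40 in Control 5. The erythroid genes ran from 39.8% GC (Tfrc) to 66.8% GC (Zfpm1), with a median of 52.6% against 49.1% over the 15459 features with a GC value. In HLU 4 the 11 genes of highest GC content had a mean of -1.40 and the 11 of lowest GC content -0.43, while in HLU 7 the order was the other way, -0.70 and -1.21. In Control 4 the same means were -0.67 and 0.28, and in Control 5 they were 0.53 and -0.26.

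After the dependence on GC content was taken out of each library, HLU 7 (-0.96), HLU 1 (-0.67) and HLU 4 (-0.55) were still the lowest mice and Control 7 (0.73) and Control 6 (0.57) the highest. The median log2 difference of the 34 genes was then -0.43 against -0.01 over all features, and 10 of the 34 were lower at the unadjusted rule, against 2.83% of features (437 of 15459). Klf1, Kel and Hemgn were no longer among the 10, and Epor, Icam4 and Ppox were. The median standard deviation within groups of the 11 genes of highest GC content went from 0.66 to 0.56. It went from 1.12 to 0.58 for Zfpm1 and from 0.97 to 0.60 for Epor, but from 0.64 to 0.75 for Klf1 and from 0.64 to 0.67 for Trim58. With that adjustment the log2 difference of Epor was -0.61 ± 0.28 (SE). Without the 3 libraries of lowest slope, Control 1, Control 4 and HLU 4, 13 of the 34 genes were lower at that rule, against 5.41% of features.

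**Figure D3:**
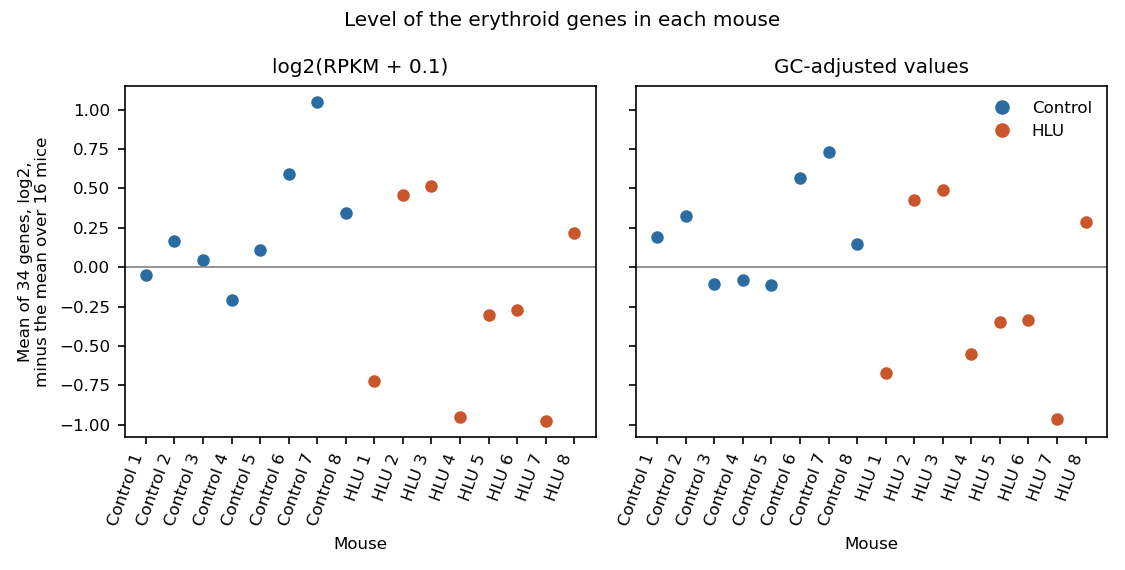
Mean of the 34 genes in each mouse on the log2 scale, relative to the mean of the 16 mice, from log2(RPKM + 0.1) at left and after removal of the dependence on GC content at right. HLU 7 (-0.98 at left, -0.96 at right) is lowest and Control 7 (1.05 and 0.73) highest in both, and the groups overlap.

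The genes varied between mice more than most. The standard deviation within groups had a median of 0.59 on the log2 scale over the 34 genes against 0.43 over all features, and 33 of the 34 lay above that overall median. After the GC adjustment the medians were 0.52 and 0.32.

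They also varied together. Over the 16 mice, taken as deviations from the group means, the 561 pairs of erythroid genes had a median Pearson r of 0.78, against a median of 0.13 between an erythroid gene and any other feature. Of the pairs 433 (77.2%) had an r above 0.5 and 10 were negative. The closest pair was Rhag and Slc25a37 (r = 0.99) and the most distant Zfpm1 and Tfrc (r = -0.26), which lie at opposite ends of the GC range. After the GC adjustment no pair was negative (0 of 561), 494 pairs had an r above 0.5, and the median was 0.80. These values are given as a description, since all pairs share the same 16 libraries.

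**Figure D4:**
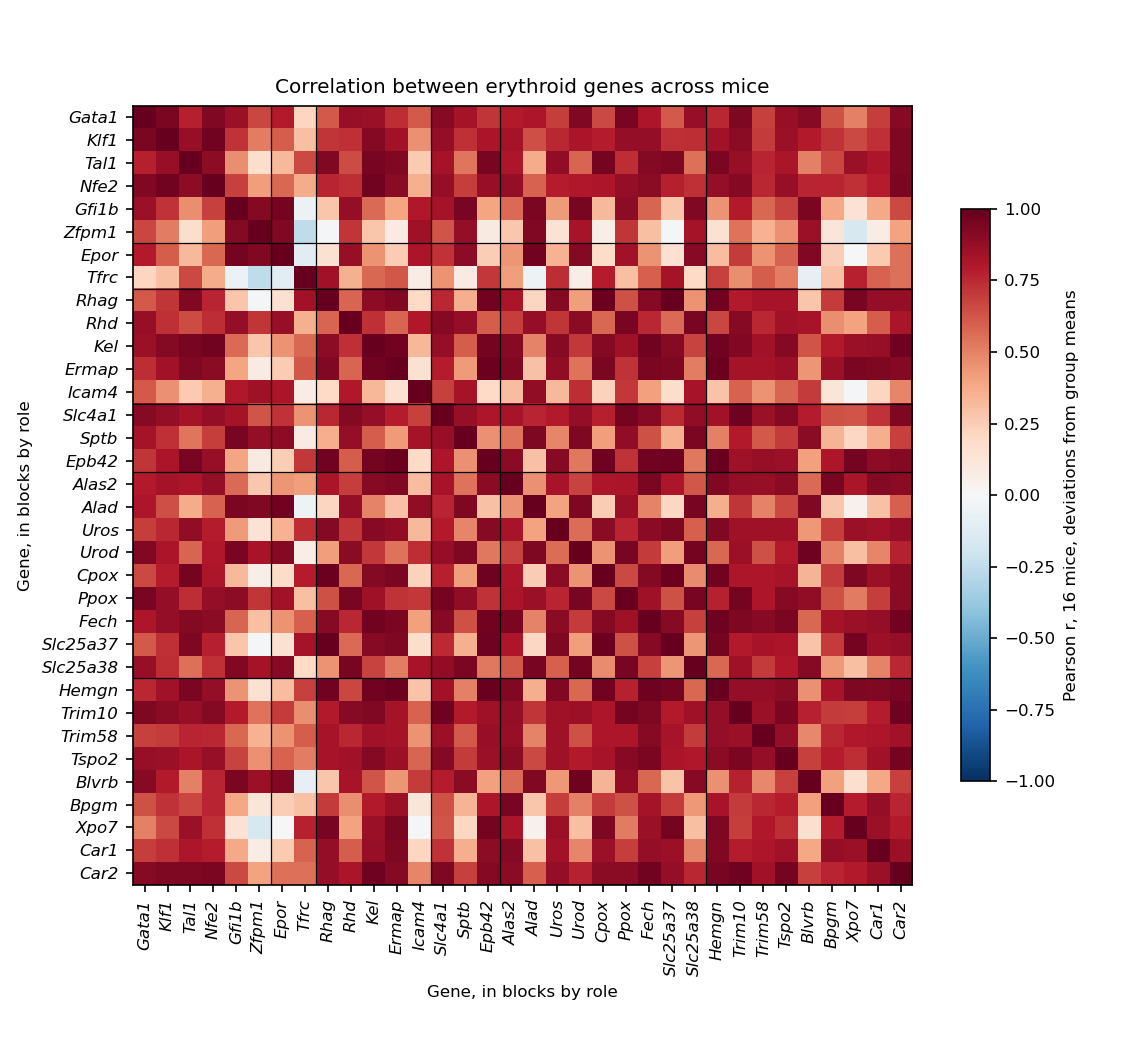
Pearson r between each pair of the 34 genes over 16 mice, as deviations from the group means of log2(RPKM + 0.1), in blocks by role. Most cells are red (median 0.78), and the 10 negative cells join Tfrc, Xpo7, Rhag or Slc25a37 to Zfpm1, Epor, Gfi1b, Icam4, Alad or Blvrb.

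Log2 Alas2 was taken as a term beside the group. At an adjusted p under 0.1, 28 of the other 33 genes had a positive slope, against 20.9% of all features. A negative slope passed for 0 of the 33, against 1378 of 16972 features. The 5 genes that did not pass were Zfpm1, Epor, Tfrc, Icam4 and Alad. Hemgn followed Alas2 closely (r = 0.925, permutation p = 5e-05, rho = 0.879, permutation p = 0.00024, limma adjusted p = 0.000157), and r was 0.913 without HLU 7 and HLU 4, the mice farthest from the median of Alas2. Fech was as close (r = 0.945, permutation p = 3e-05, rho = 0.932, permutation p = 5e-05, limma adjusted p = 0.000161), with r = 0.922 without those mice. For Car1 r was 0.920 (permutation p = 2e-05, rho = 0.900, permutation p = 2e-05, limma adjusted p = 0.000205), and 0.922 without them. Tfrc did not follow Alas2 (r = 0.421, permutation p = 0.14, rho = 0.291, permutation p = 0.317, limma adjusted p = 0.218, r = 0.461 without those mice). After the GC adjustment, median r with the other erythroid genes went from 0.447 to 0.632 for Tfrc and from 0.404 to 0.654 for Zfpm1. In all 15 relations of this kind were computed.

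Within the 8 HLU mice r with Alas2 was higher than within the 8 Control mice for 9 of the 10 genes paired with it, all but Car1. For Slc4a1 r was 0.974 within HLU and 0.399 within Control mice, and over all 16 it was 0.828 (permutation p = 0.00078, rho = 0.721, permutation p = 0.00729, limma adjusted p = 0.00197, r = 0.729 without HLU 7 and HLU 4). For Gata1 the corresponding values were 0.934, 0.436 and 0.790 (permutation p = 0.00067, rho = 0.753, permutation p = 0.00183, limma adjusted p = 0.00372, r = 0.643 without those mice). The difference between the groups in these correlations was not tested.

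**Figure D5:**
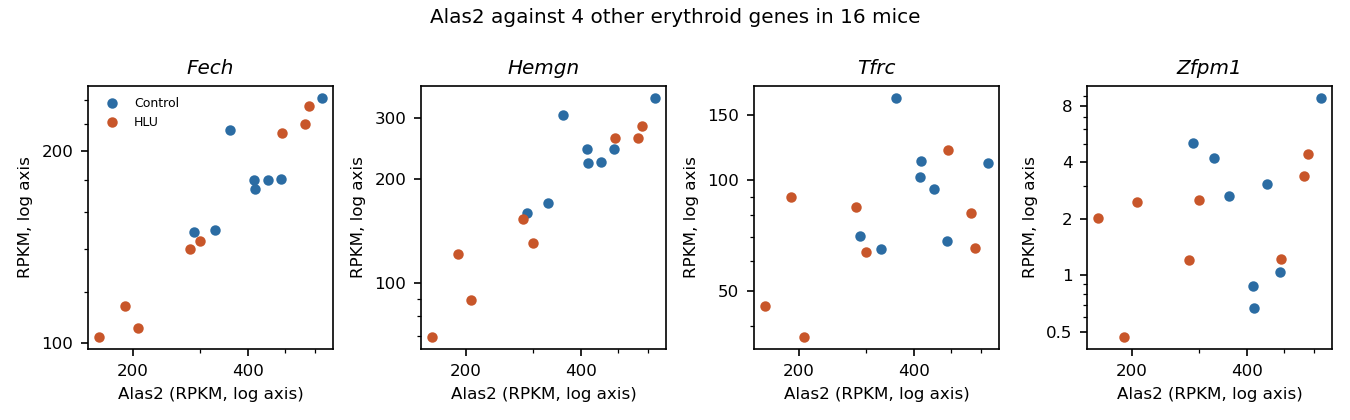
RPKM of Fech, Hemgn, Tfrc and Zfpm1 (vertical, log axes) against RPKM of Alas2 (horizontal, log axis) in 8 Control and 8 HLU mice, 1 point per mouse. Fech and Hemgn follow Alas2 in both groups (r = 0.945 and 0.925 as deviations from group means), whereas Tfrc and Zfpm1 scatter (r = 0.421 and 0.269).

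Marrow genes of another lineage followed part of the same order. Ctsg is a granule protease of immature neutrophils. Its positive slopes passed an adjusted p under 0.1 for 23 of the 34 erythroid genes, against 19.9% of all features. That count was 10 after quantile normalization, against 10.2%, and 26 after the GC adjustment, against 27.4%. S100a8, abundant in mature neutrophils, had positive slopes past the same threshold for 20 of 34, against 27.5%. After quantile normalization there were 13, against 5.4%, and after the GC adjustment 27, against 25.9%. For Col1a1, the main collagen of osteoblasts, positive slopes passed that threshold for 0 of 34, against 0.737%. Negative slopes passed it for 0 of 34, against 2 of 16972 features. That became 1 after quantile normalization, of 94 over all features, and 1 after the GC adjustment, of 7. The slope of Alas2 on Col1a1 was below 0 (-0.36, r = -0.398, permutation p = 0.153, rho = -0.274, permutation p = 0.317, limma adjusted p = 0.516, r = -0.344 without HLU 1 and Control 8). Alas2 with Ctsg had r = 0.790 (permutation p = 0.00062, rho = 0.747, permutation p = 0.00222, limma adjusted p = 0.004), and r = 0.754 without HLU 7 and Control 2. With S100a8 it had r = 0.67 (permutation p = 0.0136, rho = 0.582, permutation p = 0.0371, limma adjusted p = 0.0145), and r = 0.447 without HLU 7 and HLU 1. Tfrc followed S100a8 (r = 0.791, permutation p = 0.00083, rho = 0.753, permutation p = 0.00207, limma adjusted p = 0.00166, r = 0.662 without HLU 7 and HLU 1). Its correlation with Ctsg did not pass (r = 0.342, permutation p = 0.22, rho = 0.229, permutation p = 0.415, limma adjusted p = 0.329, r = 0.398 without HLU 7 and Control 2). The difference between these correlations of Tfrc was not tested.

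The 10 features outside the list whose values were most like the mean of the 34 genes over 16 mice, as deviations from group means, were Ranbp10, Slc38a5, Pigq, Fen1, Tmcc2, Gm10143, Ptdss2, Cdc25b, Dhrs11 and Mcm7, with r from 0.99 to 0.98. Over 15710 features with a unique symbol the median r was 0.19. Ranbp10, with the highest r, was between 48.8 and 99.9 RPKM in Control mice (median 55.9) and between 30.5 and 79.0 RPKM in HLU mice (median 49.2). Fen1 and Mcm7 are genes of DNA replication, and Cdc25b is a phosphatase that drives entry into mitosis. Fen1 and Gm10143 had nearly the same recovered reads (500 to 2380 and 512 to 2373) and log2 differences (-0.54 and -0.53). They may thus not be separate features, and whether they share reads was not tested. Tmcc2 is also in the list of other erythroid genes.

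The globins are the main products of the lineage. Of 9 symbols 7 were listed and 4 were tested. All 4 were lower in HLU, against 67.9% of all features, and 2 passed the unadjusted rule, against 4.76%. Hbb-b1, adult beta-globin, was between 752 and 2703 RPKM in Control mice (median 1117) and between 345 and 1330 RPKM in HLU mice (median 678), with a log2 difference of -0.77 ± 0.28 (SE, exact permutation p = 0.0191). Control 7 was far above the other Control mice. Hba-a1, an alpha-globin, was between 14.5 and 564 RPKM in Control mice and between 9.61 and 111 RPKM in HLU mice, and its log2 difference of -0.66 ± 0.70 was within its standard error of 0. The adult alpha and the adult beta copies are near-identical, so reads may be split between them, and their values are uncertain. The embryonic globins Hbb-bh1, Hbb-y and Hba-x did not pass the filter and stayed at or below 0.912 RPKM.

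Of 30 other erythroid symbols 24 were listed and tested. All 24 had a log2 difference below 0, Mxi1 by less than 0.01, against 67.9% of all features, and the median was -0.44. Past the unadjusted rule were 4, against 4.76% of all features lower in HLU. They included Abcb10, a transporter of the inner mitochondrial membrane (-0.58 ± 0.22), and Slc11a2, an iron transporter (-0.36 ± 0.17). The others were Cldn13, a claudin of mouse red cell precursors (-0.56 ± 0.26), and Btg2, an inhibitor of cell division (-0.47 ± 0.19). After median-of-ratios rescaling or the GC adjustment only Abcb10 and Btg2 passed, against 2.33% and 2.83% of features lower in HLU. Mxi1, whose mean RPKM was 17.7 in Control and 17.8 in HLU mice, had 0.10 after the GC adjustment and 0.09 after median-of-ratios rescaling.

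Of 14 symbols of progenitor and partner factors 12 were listed and tested, with a median log2 difference of -0.24, less than that of the erythroid genes and more than that of all features. Lmo2, the bridging protein of the complex of TAL1 and GATA1 (-0.51 ± 0.23), and its partner Cbfa2t3 (-0.39 ± 0.16) passed the unadjusted rule. Of all features 4.76% passed it as lower in HLU. Neither gene passed after median-of-ratios rescaling or the GC adjustment. Kit, the receptor of stem cell factor on early progenitors, had -0.08 ± 0.17, and its sign turned to 0.02 after the GC adjustment. Gata2, which precedes Gata1, had -0.29 ± 0.16.

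Markers of other cells stood beside these values as follows. Megakaryocytes share Gata1 and its partners with the erythroid lineage. Of 9 megakaryocyte genes tested, 6 were lower in HLU at the unadjusted rule, against 4.76% of all features. All 9 had a lower mean (median log2 difference -0.55), against 67.9% of all features. Their summed level was between 1014 and 1715 RPKM in Control mice (median 1422) and between 438 and 1460 RPKM in HLU mice (median 827), with Ppbp the most abundant. HLU 7, HLU 4, HLU 6 and HLU 1 had the lowest sums, and HLU 2, HLU 3 and HLU 5 lay among the Control mice. Of 6 proliferation genes 0 passed, against 4.76% of all features, but all 6 had a lower mean (median -0.48), against 67.9%. Their sum was 242 to 487 RPKM in Control mice (median 377) and 121 to 452 RPKM in HLU mice (median 237), led by Mki67. HLU 7 was again the lowest mouse.

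The sum of 6 genes of mature neutrophils was between 17720 and 38030 RPKM in Control mice (median 30439) and between 12607 and 44809 RPKM in HLU mice (median 25347), with S100a8 the most abundant, a median log2 difference of -0.11 and 0 calls. The 2 immature neutrophil genes tested, of 5 written, had sums of 139 to 412 RPKM in Control mice and 104 to 342 RPKM in HLU mice, led by Ctsg, with a median of -0.16 and 0 calls. The 5 B lymphocyte genes had sums of 31.4 to 103 RPKM in Control mice and 25.3 to 81.8 RPKM in HLU mice, led by Cd79b, with a median of -0.35 and 0 calls. HLU 7 was the lowest mouse in each of these 3 sums. Over all features the unadjusted rule called 4.76% lower and 1.11% higher in HLU.

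The 5 macrophage genes, led by Vcam1, had sums of 132 to 258 RPKM in Control mice and 116 to 266 RPKM in HLU mice, a median of -0.21 and 0 calls. The 5 osteoclast genes tested, led by Ctsk, had sums of 770 to 2036 RPKM in Control mice and 772 to 2008 RPKM in HLU mice, a median of -0.08 and 0 calls. The 4 endothelial genes, led by Pecam1, had sums of 49.8 to 62.2 RPKM in Control mice and 51.5 to 73.9 RPKM in HLU mice, with a median of 0.09 and 0 calls. The 11 osteocyte and osteoblast genes of the labelled tissue were all present, led by Ibsp, with sums of 988 to 2423 RPKM in Control mice and 1292 to 2994 RPKM in HLU mice, a median of 0.04, 0 lower calls and 1 higher, Mepe, a phosphoprotein of osteocytes (0.79 ± 0.32). On RPKM 4.76% of all features were called lower and 1.11% higher. After median-of-ratios rescaling or the GC adjustment, Sost of osteocytes (0.68 in both) and Cdh5 of endothelium (0.30 in both) were also called higher. The features called higher were then 381 of 16973 after the rescaling and 511 of 15459 after the GC adjustment. In each case 4 of the megakaryocyte genes were called lower, against 2.33% and 2.83% of features. No gene of these lists was at 0 in all mice, and the 5 skeletal muscle genes were not analysed here. The part of other marrow cells in the lower erythroid values was not tested.

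Several of the genes share their place with another gene. In the RefSeq gene table of GRCm38.p6, 10 of the 34 erythroid genes overlap another gene, among them Alas2 with Apex2, Uros with Bccip, Sptb with Plekhg3 and Xpo7 with Dok2. Of the features most like the erythroid mean, Ranbp10, Pigq, Fen1 and Mcm7 also overlap another gene, and Gm10143 was not in that table. The library kit did not mark strand, so reads of such genes cannot be told apart and their values are uncertain in that measure.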

How the data were processed

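Total RNA of flushed femoral cortical bone from 16 mice was sequenced, 1 library per mouse. The deposited values were RPKM made by the authors; their methods and processing notes name TopHat2, DESeq2 and mm9, while the annotation and counter were not given in the sources used here. No unit stands in the file headers. Each RPKM value divided by the worth of 1 read gave whole reads (within 0.02) for 16973 of 16973 features tested, hence the library sizes. Features averaging 0.5 RPKM or more were tested on log2(RPKM + 0.1), so differences of low genes are understated, with limma 3.58.1 (R 4.3.3, variance trend) and Benjamini-Hochberg adjustment over all of them; exact two-sided permutation tests used 12870 assignments, and correlations 100000 permutations within groups (Python 3.11.15, numpy 2.4.6, scipy 1.17.1, pandas 2.3.3, matplotlib 3.10.9). The limma step was also run on simulated data with noise independent between genes. Genes here vary together between libraries, so that run does not show how the step behaves on these data. Genes named were the 36 members, with values by group for 11 chosen members (Ahsp had none) and for the member of each role with the lowest p. The members and lists were chosen with earlier results of these data known. Mpo, Elane, Prtn3, the muscle markers, Ank1 and Ahsp were not analysed here, and Ctsg and S100a8 took the place of Mpo after the data were seen. The GC adjustment (a cubic fit per library), the removal of libraries of low GC slope and the removal of single mice were also added after seeing the data. Other alternatives changed the pseudocount, the filter, the scaling, the variance trend, the samples and the block. Libraries were run 8 to a lane, and which mice shared a lane is not given in the sources used here, so lane could not be a term and may coincide with group. Single values of some genes of the other erythroid list are not reported here.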

Additional observations from a re-analysis of the deposited data

Results flagged for a closer look

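In a search of 148 groups of 8 mice, for the 34 erythroid genes and the 40 tested genes of the globin, other erythroid and progenitor lists, the highest mouse stood apart from the rest of its group in 18 groups, all of them Control groups. The gap to the next mouse, in RPKM, exceeded 0.526 of the range of the group in each, a mark that normally spread values pass in about 1 group in 20. On the log2 scale only 3 of the 18 stood apart, Trim58 and Gata2 in Control 7 and Fam132b in Control 6, so most depend on the scale. On that scale 3 others stood apart as the lowest of the HLU mice, Epor and Hba-a2 in HLU 4 and Fam132b in HLU 1. In all, 6 groups stood apart on the log2 scale, of 148 searched, near the 1 in 20 of normally spread values. Control 7 was the mouse in 16 of the 18 groups found in RPKM. The genes vary together and share the same libraries, so the 18 groups are not separate results.

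Among the erythroid genes Control 7 reached 20.8 RPKM for Gfi1b (next Control mouse 10.8), 14.9 for Icam4 (next 7.21), 75.7 for Alad (next 38.9), 71.6 for Urod (next 43.2) and 51.3 for Ppox (next 32.8). The same mouse had 31.7 RPKM for Slc25a38 (next 16.1), 17.3 for Trim58 (next 9.92), 27.9 for Tspo2 (next 18.9) and 55.9 for Blvrb (next 27.1). In the other lists it reached 564 RPKM for Hba-a1 (next 232), 2703 for Hbb-b1 (next 1620), 2769 for Hbb-b2 (next 1668), 46.3 for Tspan33 (next 28.5), 468 for Aqp1 (next 295), 4.38 for Gata2 (next 2.69) and 19.5 for Ldb1 (next 13.5). Without Control 7 the median log2 difference of the 34 genes was -0.40 and 4 genes were lower at the unadjusted rule, against 3.02% of all features.

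Control 6 had 167 RPKM for Tfrc (next 112) and 23.7 RPKM for Fam132b (next 1.96), the gene of erythroferrone, a hormone that erythroid precursors release under erythropoietin. Fam132b was between 0.328 and 1.09 RPKM in the HLU mice. The source of these values was not tested.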

How the results depend on the processing

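All 34 genes were lower in HLU under each alternative but 1: Car1 turned from -0.16 to 0.0126 (log2) without HLU 7, and was -0.27 without Control 5. The count of 10 lower genes became 5 without Control 2 and HLU 5, and 3 to 19 when 1 mouse was left out. Over all features, 808 lower calls became 395 with median-of-ratios, 364 with quantile and 437 with GC-adjusted values, and 188 higher calls became 391 without the filter, 106 at a mean of at least 2 RPKM, 381 with median-of-ratios, 460 with quantile, 511 with GC-adjusted values and 108 without Control 2 and HLU 5. With 1 mouse left out they were 471 to 1385 lower and 117 to 363 higher, and 0 to 1 adjusted calls; the adjusted count was 1 without the filter and 1 without the variance trend, and 0 of the 34 genes throughout. Under quantile normalization genes called with Ctsg became 10 (10.2% of features) and with S100a8 13 (5.4%). The causes were not tested. Genes lower at an exact p under 0.05 were 5 on RPKM (5.14% of features), 3 without Control 2 and HLU 5 (5.53%) and 3 to 16 with 1 mouse left out (2.98% to 8.38%). Deviations of Control and HLU mice of the same number had r from -0.17 to 0.51, best with its own number in 1 of 8. Such correlations cannot show whether mice were paired by design, and the labels give numbers only, so the main test left the mice unpaired. The replicate block gave 8 lower genes (4.95% of features) and, in an exact paired test, 1 (4.45%). Over alternatives, 840 single-gene differences kept direction and side of an exact p of 0.05, 46 passed it newly, 31 no longer did and 1 turned. Depth limits Icam4 most, at 13 reads in the shallowest case.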
